A study of Mus musculus with 2 samples.

Results

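CD31 and 8 integrin chains were followed at the RNA level in mouse bone marrow cells sorted for E-cadherin. The genes were Pecam1, Itga4, Itgb1, Itgb7, Itga2, Itga2b, Itgb3, Itgam and Itgb2, taken by symbol, and all 9 were found among the 31053 genes of the deposited tables. A cKIT+ and a cKIT- fraction of the E-cadherin+ cells were sorted by flow cytometry from bone marrow and sequenced as 1 single-cell library each. The labels give FVB as the strain for both, whereas the study's text speaks of wild-type mice and of Vav-iCre;mTmG mice, in which Cre driven by the pan-hematopoietic Vav promoter switches a fluorescent reporter. The cells came from several mice, and neither age nor sex is given in the sources used here. The sort followed a gating scheme whose plots were not used here, so whether it left out lineage-positive cells, CD11b+ cells among them, is not stated below. The study stained CD31 and CD11b on marrow cells for flow cytometry. It reported high CD31 on E-cadherin+ hematopoietic cells, and no coexpression of E-cadherin with lineage markers, CD11b among them. This raises the question of which E-cadherin+ cells carry the RNA of these surface proteins.

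Integrins are pairs of an alpha and a beta chain that hold leukocytes to other cells and to matrix. The α4 chain (Itga4, CD49d) pairs with β1 (Itgb1, CD29) to bind VCAM-1 and fibronectin and with β7 (Itgb7) to bind MAdCAM-1, and α4 integrins are known for keeping progenitors in the marrow and for bringing mast cell progenitors to the gut. The α2 chain (Itga2, CD49b) binds collagen together with β1, and antibodies to it are widely used to stain mouse basophils and NK cells. The αIIb chain (Itga2b, CD41) pairs with β3 (Itgb3, CD61) into the fibrinogen receptor of platelets, and αM (Itgam, CD11b) pairs with β2 (Itgb2, CD18) into the complement receptor of neutrophils and macrophages. CD31 (Pecam1) is not an integrin but an adhesion molecule of the immunoglobulin family that binds CD31 on a neighbouring cell and carries inhibitory motifs in its tail.

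After the study's cell filter 6479 cKIT+ and 3662 cKIT- cells remained, with a median of 13039 and 4416.5 UMIs (counted RNA molecules) per cell. The libraries shared 10 cell barcodes. Cells were gated on the share of their UMIs that came from 1 lineage gene, with at least 3 UMIs of it, and a cell that passed several gates was kept apart. Further gates on Prg2, Ngp, C1qa, Hba-a1, Cd79a and Pf4 counted here, so no group named by a gate held cells that passed another. Mcpt8, a basophil protease, gated 3218 cKIT+ cells and 2447 cKIT- cells at a share of at least 0.3%. Gzmb, a granzyme also made by mast cell progenitors, gated 285 cKIT+ cells at 0.05%, and 0 cKIT- cells passed this gate alone. Elane, the neutrophil elastase of granulocyte-monocyte progenitors, gated 593 cKIT+ and 2 cKIT- cells at 0.1%, so Gzmb and Elane are described for the cKIT+ library only. No gate took 21.5% of the cKIT+ and 25.6% of the cKIT- cells. Gates were checked against marker lists, where a marker counted as present at 20 CPM (UMIs of a gene per 1000000 UMIs summed over the cells of a group). All 10 basophil markers, the gating gene Mcpt8 itself among them, were present in the Mcpt8-gated cells of both libraries. The 4 progenitor granule genes, Elane itself among them, summed to 34957 CPM in the Elane-gated cells, but all 4 were also at 20 CPM in the cKIT+ Mcpt8-gated and Gzmb-gated cells, where they summed to 7771 and 358 CPM. Beside Gzmb itself, 2 of the other mast cell markers were present in the Gzmb-gated cells. These were Cma1, a mast cell chymase, at 285 against 2.95 CPM in the cKIT+ Mcpt8-gated cells and Kit at 193 against 17.7 CPM, whereas the mast cell tryptases Tpsb2 and Tpsab1 were at 0 UMIs. Of 5 erythroid markers, 2 were present in the Gzmb-gated cells, Car1 at 98.8 against 1.07 CPM and Klf1 at 20.1 against 4.28 CPM. Of 6 neutrophil markers, 3 were present in both gates, with sums of 444 and 224 CPM. The Gzmb-gated cells also held 9 of the 10 basophil markers at 20 CPM, with a sum of 4352 against 47743 CPM. Mcpt8 alone gave 281 and 20242 CPM of these sums, and the Gzmb-gated cells had by rule not passed the Mcpt8 gate. Presence at 20 CPM alone does not show sharing, since it was also met in cKIT+ cells gated on the B cell gene Cd79a. There 6 of the 10 basophil markers passed it, with a sum of 400 CPM. So did 3 of the 4 progenitor granule genes, with a sum of 115 CPM. The basophil marker Prss34 was at 120 CPM in Gzmb-gated and 110 CPM in Cd79a-gated cells. How much of the shared signal was background was not tested, and the gates are called by their gating gene. Kit, the gene sorted on, was at 37.1 CPM in the cKIT+ and 0.875 CPM in the cKIT- library. With 1 library per sort nothing was tested, and the 95% intervals given with values cover counting error only.

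The upstream sequences of Itga4 and Itgb7 are shown because these partners were high together in Gzmb-gated cells and went opposite ways between the sorts. Each run is 250 bases that end just before the RefSeq start of the gene, 5′ to 3′ on the gene's strand, from RefSeq for GRCm38.p6, the build of the files. The Itga4 run lies at chr2:79255176-79255425 on the plus strand and the Itgb7 run at chr15:102231936-102232185 on the minus strand, where its last bases lie inside the longer GENCODE gene model. Capitals mark the only match found for 4 short motifs on both strands.
Itga4: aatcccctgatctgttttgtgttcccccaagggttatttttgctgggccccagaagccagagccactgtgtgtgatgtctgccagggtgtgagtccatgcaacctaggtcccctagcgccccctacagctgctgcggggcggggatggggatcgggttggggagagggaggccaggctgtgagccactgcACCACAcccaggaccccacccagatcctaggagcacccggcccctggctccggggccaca
Itgb7: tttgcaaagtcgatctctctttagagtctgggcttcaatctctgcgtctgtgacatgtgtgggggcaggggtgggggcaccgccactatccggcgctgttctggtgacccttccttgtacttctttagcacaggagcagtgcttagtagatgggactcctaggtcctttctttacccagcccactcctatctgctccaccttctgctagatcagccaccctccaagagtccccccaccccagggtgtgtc
The upstream runs of the 6 members that RefSeq's table holds were searched for core letters of known factor families. These were GATAA for GATA factors, TGTGGT for RUNX factors, CCGGAA for ETS factors and TTGCNNAA for C/EBP factors. The single match was TGTGGT on the opposite strand of Itga4, read as ACCACA above and starting 60 bases before the gene. The Itga2b run, at chr11:102469884-102470133 on the minus strand, lay mostly inside its longer GENCODE gene model, which reaches to 102470122. Of 32851 promoters of the same length, 14.0% held the RUNX letters, 22.6% the GATA, 12% the ETS and 9.56% the C/EBP letters. A match of letters is a description and not a binding site.

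Between the sorts, 6 of the 9 genes differed by at least 2-fold in CPM, 5 of them higher and 1 lower in the cKIT- library. Over all cells, 8 of the 9 genes reached the minimum of 10 CPM in 1 library, and Itga2 did not. Of 8023 genes with that level, 9.06% were at least 2-fold higher and 7.30% at least 2-fold lower in cKIT- cells. The median ratio of cKIT- over cKIT+ was 2.51 for the 8 members and 1.02 for all genes tested. The sorts differ in which cells they hold, so the comparison was repeated within Mcpt8-gated cells, where 5.69% of 7731 genes were 2-fold higher and 4.64% lower. There again 5 of 8 members were higher and 1 lower in cKIT- cells, with a median ratio of 2.59 against 1.02. The gate did not make the mix of cells equal. In a split described below, 1434 of 3218 cKIT+ and 1769 of 2447 cKIT- Mcpt8-gated cells were high in the basophil marker Prss34. Itgb1 passed 2-fold over all cells and Itgam within the gate, whereas Itgb7, Itga2b, Itgb3 and Itgb2 were higher and Itga4 lower in both. The levels by group are drawn for each gene.

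**Figure D1:**
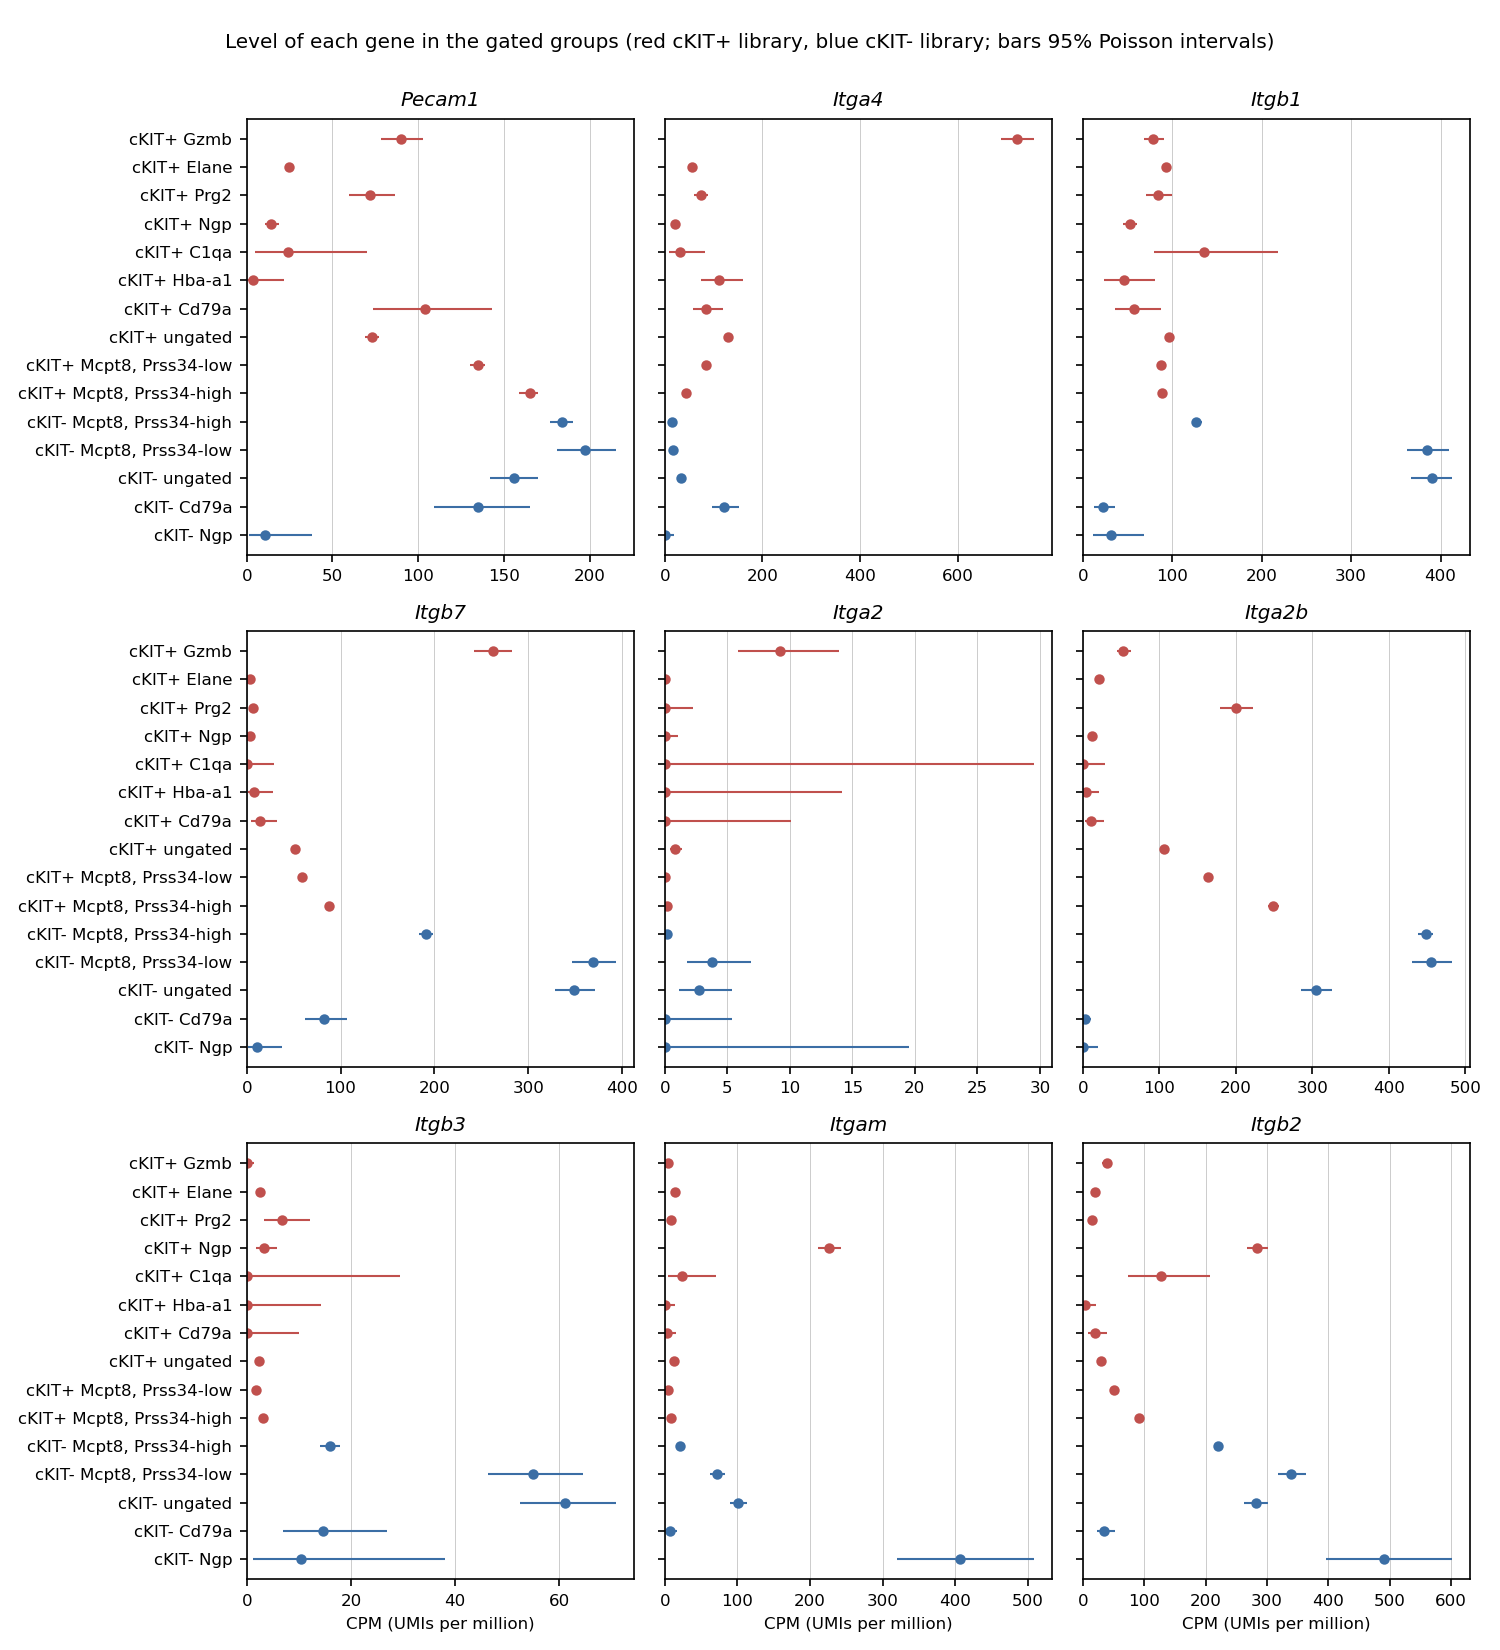
CPM of each gene (horizontal axis, from 0, a separate scale for each gene) in 10 groups of the cKIT+ library (red) and 5 of the cKIT- library (blue), with Mcpt8-gated cells split by Prss34. Bars are 95% Poisson intervals, and groups are named by the gating gene. Itga4 peaked in Gzmb-gated cells at 721 CPM, and Itgb1 and Itgb3 were high in Prss34-low and ungated cKIT- cells.

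Pecam1 RNA was found in the Mcpt8-gated cells of both libraries, with little difference between them. It stood at 148 CPM (interval 145 to 152) in cKIT+ and 185 CPM (179 to 192) in cKIT- Mcpt8-gated cells, a ratio of 1.25 (1.20 to 1.30). Over all cells the levels were 102 and 178 CPM, a ratio of 1.75 (1.68 to 1.81). The lower cKIT+ level over all cells went along with gates in which Pecam1 was low. It had 24.7 CPM in Elane-gated cells and 14.2 CPM in cells gated on Ngp, a neutrophil granule gene. Gzmb-gated cells lay between at 89.9 CPM (78.5 to 103), above the 73.1 CPM (69.0 to 77.4) of ungated cKIT+ cells. Cells gated on the B cell gene Cd79a in the cKIT- library reached 135 CPM (109 to 165), below both Mcpt8-gated groups by its estimate. CD31 is best known from endothelium, and the 6 endothelial markers summed to 4.45 and 1.59 CPM in the Mcpt8-gated cells of the cKIT+ and cKIT- library, with none at 20 CPM. With every cell thinned to 2000 UMIs, 25.5% (24.0% to 27.1%) of cKIT+ and 31.1% (29.3% to 33.0%) of cKIT- Mcpt8-gated cells showed a Pecam1 UMI. Among 43 cells gated on the globin gene Hba-a1, which should lack the gene, the share was 2.33% (0.0589% to 12.3%). Unthinned shares were 82.4%, 70.1% and 1.96% at median depths of 14053.5, 6916 and 4309 UMIs.

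Itga4 was the single member lower in cKIT- cells, and its highest level by far was in Gzmb-gated cells. It had 65.9 CPM (63.6 to 68.2) in cKIT+ and 15.3 CPM (13.6 to 17.2) in cKIT- Mcpt8-gated cells, 4.31 times lower (3.82 to 4.88). Over all cells it was at 94.1 CPM in the cKIT+ and 20.8 CPM in the cKIT- library. In Gzmb-gated cells it reached 721 CPM (688 to 755), while Elane-gated cells at 55.6 CPM (51.8 to 59.7) lay just under the cKIT+ Mcpt8-gated cells. At 2000 UMIs per cell, 70.6% of Gzmb-gated, 11.5% (10.4% to 12.7%) of cKIT+ Mcpt8-gated and 2.75% (2.13% to 3.48%) of cKIT- Mcpt8-gated cells showed the gene. The share was 4.71% (2.60% to 7.78%) in cKIT+ Ngp-gated and 9.30% (2.59% to 22.1%) in Hba-a1-gated cells. The cKIT- Mcpt8-gated share lay below both. These groups do not set its background, since both are of the other library and the Hba-a1-gated cells had 112 CPM (74.9 to 161). Within the cKIT- library, Itga4 had 73.3 CPM (58.0 to 91.3) in Mcpt8-gated and ungated cells with an Mcpt8 share under 0.05%. It had 18.6 CPM (7.47 to 38.3) from 0.05% to 0.1% and 7.39 CPM (3.69 to 13.2) from 0.1% to 0.3%. Above that it was level, at 15.6 CPM from 0.3% to 1%, 14.3 CPM from 1% to 3% and 15.7 CPM (13.5 to 18.2) at 3% or more. How much of the low cKIT- level was background was not tested, so the ratio between the sorts is not an exact fold. The Cd79a-gated cells of the cKIT- library had 122 CPM (96.9 to 151) of Itga4.

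Both beta chains that pair with α4 went the other way between the sorts. Itgb7 had 71.7 CPM (69.3 to 74.1) in cKIT+ and 216 CPM (209 to 223) in cKIT- Mcpt8-gated cells, a ratio of 3.01 (2.88 to 3.15). Gzmb-gated cells exceeded both at 262 CPM (242 to 283). Itgb7 was close to absent from the remaining myeloid gates, with 3.79 CPM in Elane-gated, 3.61 CPM in cKIT+ Ngp-gated and 6.21 CPM in cells gated on the eosinophil gene Prg2. Its share of cells at 2000 UMIs was 0.339% (0.0411% to 1.22%) in Elane-gated cells and 4.65% (0.568% to 15.8%) in 43 Hba-a1-gated cells. Without thinning, its 53 UMIs in the Elane-gated cells came from 29 of 593 cells. How much of this level was background was not tested. In Gzmb-gated cells the share at 2000 UMIs was 45.7% (39.8% to 51.8%), and it was 13.7% and 39.3% in the Mcpt8-gated cells of the cKIT+ and cKIT- library. Itgb1, the common beta chain of α1 to α6 integrins, had 87.7, 78.7 and 93.2 CPM in the Mcpt8-, Gzmb- and Elane-gated cells of the cKIT+ library. The Gzmb interval (68.1 to 90.5) overlapped that of the Mcpt8-gated cells (85.0 to 90.4). Other cKIT+ gates went both ways, with 52.2 CPM (45 to 60.3) in Ngp-gated and 46.3 CPM (23.9 to 80.8) in Hba-a1-gated cells. Prg2-gated cells had 84.4 CPM (70.8 to 99.9), and 44 cells gated on the macrophage gene C1qa had 136 CPM (79.2 to 218). At 2000 UMIs per cell the gene was seen in 7.07% (4.43% to 10.6%) of the Ngp-gated and 17.0% (15.7% to 18.4%) of the Mcpt8-gated cKIT+ cells. The share was 26.1% (10.2% to 48.4%) of 23 C1qa-gated cells. In cKIT- Mcpt8-gated cells it was 164 CPM (158 to 169), 1.87 times the cKIT+ level (1.78 to 1.95) and so just short of 2-fold. Halving the gate limits, averaging over cells or thinning each put this ratio past 2-fold, up to 2.42. The gap also differed with the Prss34 level of the cells, as given below.

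Itga2 was nearly undetected in Mcpt8-gated cells, although its protein CD49b is a stain for basophils. There were 5 UMIs over 3218 cKIT+ cells, or 0.105 CPM (0.0342 to 0.246), and 13 UMIs over 2447 cKIT- cells, or 0.690 CPM (0.368 to 1.18). The highest level was 9.24 CPM (5.85 to 13.9) in Gzmb-gated cells, from 23 UMIs, under the minimum of 10 CPM for a called gene. Against cKIT+ Mcpt8-gated cells this was a ratio of 87.7 (32.6 to 295), which divides by 5 UMIs. Leaving out the 10 most abundant genes or averaging over cells changed the call of Itga2 in this comparison. It was at 0 UMIs in Elane-, Prg2-, Ngp-, C1qa-, Hba-a1- and Cd79a-gated cells, where 3 counts would correspond to between 0.215 CPM in Elane-gated and 24.0 CPM in C1qa-gated cells. RNA near the floor does not show whether the protein was on the surface.

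Itga2b was high in Mcpt8-gated cells of both libraries while platelet markers were near 0. It had 201 CPM (197 to 206) in cKIT+ and 449 CPM (440 to 459) in cKIT- Mcpt8-gated cells, a ratio of 2.23 (2.16 to 2.30). The 7 megakaryocyte and platelet markers together summed to 4.95 and 3.35 CPM in these cells, with none at 20 CPM and Ppbp and Gp6 at 0 in both. Pf4, among the 7, was also a gate at 0.1% of UMIs, so by rule these cells had not passed it. The cKIT+ cells that passed several gates, kept apart, had 243 CPM of Pf4. Prg2-gated cells had 200 CPM (179 to 223), within the interval of the cKIT+ Mcpt8-gated cells, whereas Gzmb- and Elane-gated cells had 52.6 and 20.7 CPM. At 2000 UMIs per cell the gene was seen in 34.6% (33.0% to 36.3%) of cKIT+ and 60.4% (58.5% to 62.4%) of cKIT- Mcpt8-gated cells, and in 0.463% (0.0117% to 2.55%) of 216 Cd79a-gated cKIT- cells. Without thinning these shares were 88.9%, 90.8% and 0.893%, the last at a median depth of 2673 UMIs.

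Its partner Itgb3 was higher in cKIT- cells, over a cKIT+ level near 0. It had 2.38 CPM (1.96 to 2.86) in cKIT+ and 21.5 CPM (19.4 to 23.7) in cKIT- Mcpt8-gated cells, a ratio of 9.01 (7.30 to 11.2). In Gzmb-gated cells there were 0 UMIs, where 3 counts would be 1.20 CPM, and Elane-gated cells had 2.57 CPM (1.80 to 3.56). At 2000 UMIs per cell, 5.79% (4.89% to 6.80%) of cKIT- Mcpt8-gated cells showed Itgb3, against 1.85% (0.507% to 4.67%) of the Cd79a-gated cells of that library. By CPM these 2 groups were not told apart, since the Cd79a-gated cells had 14.7 CPM (7.03 to 26.9). In cKIT+ Mcpt8-gated cells the share was 0.727% (0.461% to 1.09%), inside the Gzmb-gated interval of 0% to 1.3%. By CPM the Mcpt8-gated cells lay above the Gzmb-gated interval of 0 to 1.48 CPM but close to the Elane-gated cells. How much of the level in the cKIT+ Mcpt8-gated cells was background was not tested, so the ratio of 9.01, which divides by it, is not an exact fold.

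Itgam and Itgb2 were highest in Ngp-gated cells of both libraries, and also differed between the sorts in Mcpt8-gated cells. Ngp-gated cells had 226 CPM (211 to 243) of Itgam in the cKIT+ and 406 CPM (320 to 508) in the cKIT- library, the latter from 26 cells. In Mcpt8-gated cells Itgam was at 6.17 CPM (5.49 to 6.92) in cKIT+ and 28.4 CPM (26.0 to 30.9) in cKIT- cells, a ratio of 4.59 (3.98 to 5.32). In the same cells the 6 neutrophil markers summed to 224 CPM in the cKIT+ and 181 CPM in the cKIT- library, and the 5 monocyte and macrophage markers to 22.8 and 23.5 CPM. Mcpt8-gated cells had by rule not passed the gates on Ngp and C1qa, which stand in these lists. Itgb2 had 69.3 CPM (66.9 to 71.7) and 238 CPM (231 to 245) in the same cells, a ratio of 3.44 (3.29 to 3.60), and 284 CPM (267 to 302) in cKIT+ Ngp-gated cells. Gzmb- and Elane-gated cells were lower at 38.9 and 20.1 CPM. At 2000 UMIs per cell Itgam was seen in 1.30% (0.931% to 1.75%) of cKIT+ and 7.12% (6.12% to 8.22%) of cKIT- Mcpt8-gated cells and Itgb2 in 13.5% and 40.5%. Itgam was seen in 0.463% (0.0117% to 2.55%) of 216 Cd79a-gated cKIT- cells and in 0.709% (0.0860% to 2.54%) of Gzmb-gated cells. The cKIT- Mcpt8-gated share lay above both intervals. The cKIT+ share lay inside them. These groups do not set the cKIT+ background, since the Cd79a-gated cells are of the other library and Gzmb-gated cells may hold Itgam. In the cKIT+ split by Prss34 described below, Itgam had 8.39 CPM (7.2 to 9.72) in Prss34-high and 4.4 CPM (3.64 to 5.28) in Prss34-low cells. How much of the cKIT+ level was background was not tested, so the ratio of 4.59 is not an exact fold either. Itgb2 was seen in 2.33% of 43 Hba-a1-gated cells. Over all cells the Itgam ratio between the sorts lay just under 2-fold, with an interval of 1.84 to 2.16. Leaving out the cells with the highest doublet scores, or the 10 most abundant genes from the totals, took it past 2-fold, up to 2.14. Ungated cKIT- cells had 101 CPM (89.4 to 113) of Itgam, and their neutrophil markers summed to 5878 CPM with 5 of 6 present. The part of neutrophil RNA in that level was not tested. The study reported no CD11b protein together with E-cadherin, and whether the Itgam RNA went along with surface protein was not tested here.

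**Figure D2:**
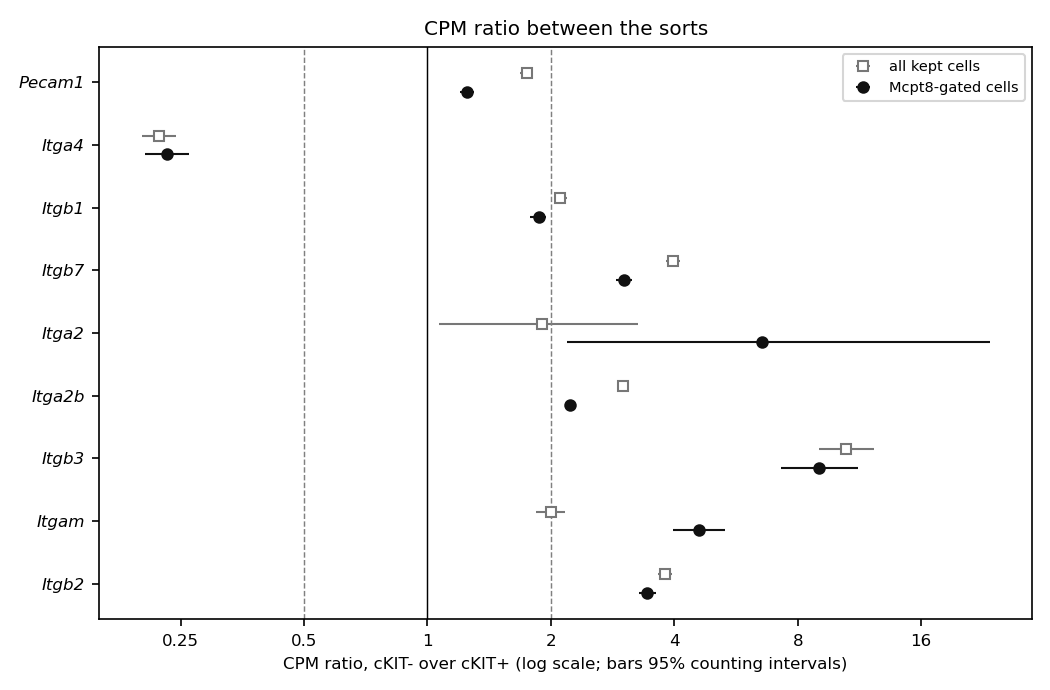
Ratio of CPM in the cKIT- library over the cKIT+ library for each gene (log scale) over all kept cells (open squares) and in Mcpt8-gated cells (filled circles). Bars are 95% counting intervals, the solid line marks equal levels and the dashed lines 2-fold. Itga4 alone lay left of equality, at 0.221 and 0.232, and Itgb3 lay at 10.5 and 9.01, over cKIT+ levels of 2.48 and 2.38 CPM.

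Other genes of integrin function were read from lists alongside the members, in Mcpt8-gated cells, where 5.69% of all genes tested were higher and 4.64% lower in the cKIT- library and the median ratio was 1.02. Of 18 other integrin subunits, 4 reached the minimum level, and 2 of these were higher in cKIT- cells. They were the collagen-binding chain Itga1 (220 against 44.6 CPM, ratio 4.93) and Itga8 (25.0 against 5.22 CPM, ratio 4.78). Of 24 tested genes for integrin activation and its link to actin, 6 were higher and 0 lower, with a median ratio of 1.37. The adaptor Skap1 had a ratio of 8.49 (7.74 to 9.32), the actin linker Vcl 3.65 (3.43 to 3.88) and the kinase Ptk2b 2.27 (2.06 to 2.5). No ligand of 2 tested and no gene of 7 tested for CD31 signalling passed 2-fold, although the median ratio of the latter was 1.41, and the kinase Fyn came nearest at 1.99 (1.88 to 2.10). Among 8 tetraspanins and other membrane partners, Cd9 was higher, at 794 against 269 CPM.

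Within the cKIT+ library, Gzmb-gated cells were set against Mcpt8-gated cells, and α4 and β7 were both higher and αIIb lower. Of 6 members with 10 CPM in either gate, 2 were at least 2-fold higher and 1 lower. Of 8304 genes tested, 13.2% were higher and 7.55% lower, and the median ratio was 1.15, so values are read against that shift. Itga4 had a ratio of 10.9 (10.3 to 11.6) and Itgb7 of 3.65 (3.35 to 3.97), whereas Itga2b was 3.83 times lower (3.22 to 4.59). Pecam1 and Itgb2 had ratios of 0.608 (0.529 to 0.694) and 0.562 (0.455 to 0.688), and Itgb1 of 0.898 (0.774 to 1.04). With TMM scaling, which evens out the bulk of genes, Pecam1 at 0.484 and Itgb2 at 0.448 passed 2-fold as well, and the split of all called genes turned from 1096 higher and 627 lower to 553 higher and 983 lower. Among the listed genes, Itga1 had 2 UMIs in Gzmb-gated cells, 55.6 times lower in CPM (15.4 to 459), and the β2 partner Itgal was 4.43 times lower (3.13 to 6.49). The fibronectin receptor chain Itga5 was 2.41 times higher (1.52 to 3.66) at 10.0 CPM. Skap1 was 6.87 times higher (5.85 to 8.04), while Rasgrp2, the Rap1 activator of platelets, was 13.9 times lower (9.73 to 20.6). Of the CD31 signalling list, the phosphatase Inpp5d was higher at a ratio of 2.70 (2.37 to 3.06).

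Elane-gated cells against Mcpt8-gated cells showed 4 of 7 members lower and 1 higher. Of 7801 genes, 8.49% were at least 2-fold lower and 5.95% higher, with a median ratio of 1.02. Itgb7 was 18.9 times lower (14.4 to 25.3), Itga2b 9.75 times (8.67 to 11), Pecam1 6 times (5.38 to 6.70) and Itgb2 3.45 times lower (3.05 to 3.91). Itgam was 2.24 times higher (1.86 to 2.69), at 13.8 against 6.17 CPM, beside neutrophil markers that summed to 3798 against 224 CPM. How much of the Itgb7 in Elane-gated and of the Itgam in Mcpt8-gated cells was background was not tested. The ratios of 18.9 and 2.24 are thus not exact folds. Itga4 at 0.845 (0.780 to 0.914) and Itgb1 at 1.06 (0.998 to 1.13) stayed near equality. Of the lists, Fyn was 16.5 times lower (12.6 to 22.1) and the adaptor Fyb 14.2 times (12.5 to 16.1). The integrin ligands Vcam1 and C3 were higher, at 41.9 against 0.758 CPM and 71.2 against 2.34 CPM. The comparisons by sort, by Gzmb and by Elane and the splits of the cKIT+ library described next share the cKIT+ Mcpt8-gated cells, and the splits of the cKIT- library share its Mcpt8-gated cells with the comparison by sort, so these are not independent of each other.

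**Figure D3:**
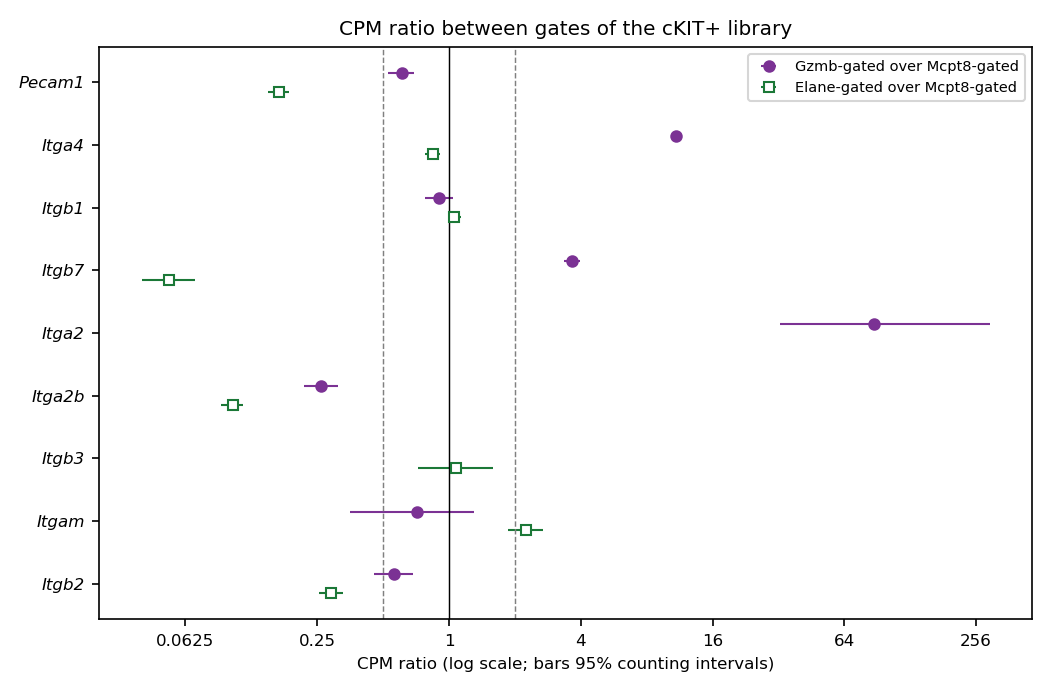
Ratio of CPM in Gzmb-gated (filled circles) and Elane-gated (open squares) over Mcpt8-gated cells of the cKIT+ library (log scale), with 95% counting intervals and dashed lines at 2-fold. Itgb3 with 0 UMIs in Gzmb-gated and Itga2 with 0 in Elane-gated cells are not drawn. Itga4 lay at 10.9 in the first and 0.845 in the second comparison.

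Mcpt8-gated cells were then split by Prss34, a basophil protease, at 2% of the UMIs. In the cKIT+ library, 1434 Prss34-high cells were set against 1784 Prss34-low cells, at median depths of 14201.5 and 13884.5 UMIs. Of 7517 genes, 0.825% were at least 2-fold higher and 0.639% lower in the Prss34-high cells, and 0 of 6 members passed. Itga4 came nearest, at 42.5 CPM (39.8 to 45.4) in Prss34-high and 84.6 CPM (81.1 to 88.2) in Prss34-low cells, a ratio of 0.503 (0.465 to 0.543). Itgb2 at 1.81 (1.69 to 1.94), Itga2b at 1.52 (1.46 to 1.58) and Itgb7 at 1.49 (1.40 to 1.60) leaned to the Prss34-high side.

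In the cKIT- library the split gave a different picture, with 3 of 8 members lower in the Prss34-high cells and 0 higher. Of 7707 genes, 6.31% were lower and 10.0% higher. With the gate limits doubled, which also doubled the Prss34 limit of the split, this balance turned. It went from 772 higher and 486 lower to 50 higher and 88 lower. Itgb1 had 127 CPM (122 to 133) in 1769 Prss34-high and 385 CPM (362 to 410) in 678 Prss34-low cells, 3.03 times lower (2.81 to 3.27). Itgb3 went from 55.0 CPM (46.4 to 64.6) down to 16.0 CPM (14.1 to 18.0), and Itgam from 72.3 CPM (62.4 to 83.2) down to 21.1 CPM (19.0 to 23.5). Itgb7 was near the limit at 0.517 (0.481 to 0.556). Itga2b at 0.984 (0.926 to 1.05), Pecam1 at 0.930 (0.848 to 1.02) and Itga4 at 0.962 (0.691 to 1.37) did not differ beyond counting error. The Prss34-low cells were the shallower ones, at a median of 3522 against 8936 UMIs. They held all 10 basophil markers at 20 CPM, the gating genes Mcpt8 and Prss34 among them. Their neutrophil markers summed to 115 CPM against 192 CPM in the Prss34-high cells, with 2 of 6 at 20 CPM in each and Ly6g at 0 in the Prss34-low cells. Their monocyte and macrophage markers summed to 52.3 against 18.8 CPM, with 1 of 5 at 20 CPM in the Prss34-low cells and C1qa at 0, and so were higher on the same side as Itgam. The part of monocyte RNA in the Itgam level was not tested. With the gate limits doubled, the Itgb1 ratio was 0.528 and no longer past 2-fold. The gap between the sorts differed between the sides of this split. Itgb1 was at 87 CPM in cKIT+ and 385 CPM in cKIT- Prss34-low cells. In Prss34-high cells it was at 88.6 and 127 CPM. Itgam was at 4.4 and 72.3 CPM in Prss34-low and at 8.39 and 21.1 CPM in Prss34-high cells. The ratios between the sorts over all Mcpt8-gated cells thus mix unlike groups.

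Cycling and resting Mcpt8-gated cells were compared by UMIs of 9 cell cycle genes after thinning. In the cKIT+ library 0 of 6 members passed 2-fold between 1591 cycling and 1184 resting cells, where 3.45% of 7541 genes were higher and 0.464% lower. In the cKIT- library 2 of 8 were lower in 893 cycling than in 1318 resting cells, where 3.11% of 7612 genes were lower and 6.75% higher. These were Itgb3, at 13.3 against 32.6 CPM, and Itgam, at 15.0 against 44.8 CPM. Itgb1 followed at 120 against 225 CPM, a ratio of 0.533 (0.494 to 0.575). Itga2b at 444 and 460 CPM and Pecam1 at 176 and 201 CPM were near level. Median depths were 10754 UMIs in cycling and 4589.5 UMIs in resting cKIT- cells, and 17563 and 11322 UMIs in the cKIT+ library. Prss34 was at 56429 CPM in cycling and 39326 CPM in resting cKIT- cells, so this split overlaps the split by Prss34. The parts of depth and of Prss34 level in these differences were not tested.

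Members also differed along the Mcpt8 share itself, in bins chosen after the values were seen. In the cKIT- library Itgb1 was at 281 CPM in 295 cells under 0.05% Mcpt8, at 459 and 451 CPM in the next bins up to 0.3%, and at 404, 171 and 117 CPM in the bins above. In the cKIT+ library Itgb1 stayed between 85.5 and 97.8 CPM. Itga2b instead climbed in the cKIT- library from 144 CPM in the lowest bin to 462 CPM (433 to 493) between 0.3% and 1% and 474 CPM (456 to 493) between 1% and 3%, and stood at 434 CPM (422 to 446) at 3% or more. Pecam1 in the cKIT+ library climbed with the Mcpt8 share from 59.8 to 173 CPM, whereas in the cKIT- library it lay between 175 and 206 CPM in every bin from 0.05% up. The lowest cKIT- bin held most of the neutrophil RNA, with 15605 CPM over the 6 markers against 19.5 CPM in the bin from 0.1% to 0.3%. Itgam was at 128 CPM (108 to 151) in the lowest bin and at 79.3 CPM (65.6 to 94.9) in the bin from 0.1% to 0.3%. Median depth rose over the cKIT- bins from 2716 UMIs in the lowest to 9712.5 UMIs in the highest. In the cKIT+ bins it lay between 10149.5 and 14388 UMIs. The part of depth in these courses was not tested.

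**Figure D4:**
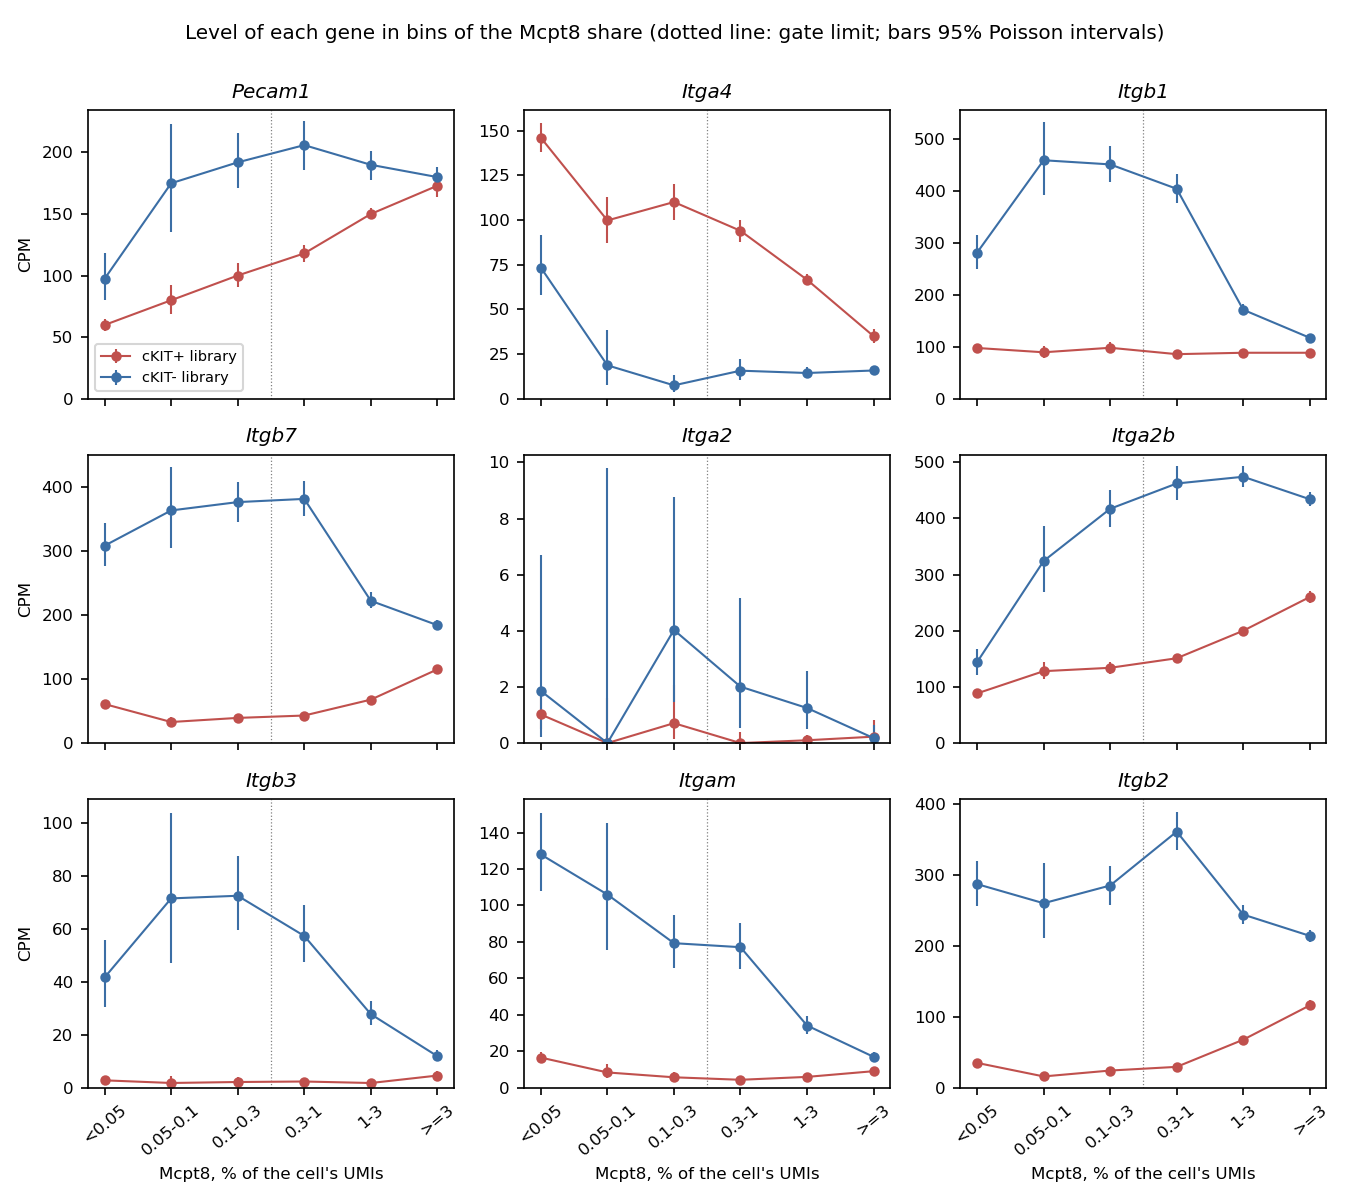
CPM of each gene (vertical axis, from 0) in bins of the share of a cell's UMIs from Mcpt8, for Mcpt8-gated and ungated cells of the cKIT+ (red) and cKIT- (blue) library. Bars are 95% Poisson intervals and the dotted line is the gate limit of 0.3%. Itgb1 in the cKIT- library went from 451 CPM in the bin below the limit to 117 CPM in the highest bin.

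Partners were also counted in the same cell, at 2000 UMIs per cell. In Gzmb-gated cells 31.9% (26.5% to 37.7%) showed both Itga4 and Itgb7, and the product of the separate shares was 32.3%. Both Itga4 and Itgb1 were seen in 8.87% (5.82% to 12.8%) against a product of 10.0%. The pair of α4 and β7 was seen in 1.52% of cKIT+ and 1.08% of cKIT- Mcpt8-gated cells, with products of 1.58% and 1.08%. These partners thus met about as often as their separate shares give. In cKIT- Mcpt8-gated cells Itga2b and Itgb3 met in 4% (3.25% to 4.86%) against 3.50%, and Itgam and Itgb2 in 3.58% (2.87% to 4.40%) against 2.88%. Itgam was seen in 8.85% (7.14% to 10.8%) of the cells with Itgb2 and in 5.94% (4.78% to 7.30%) of those without. Pecam1 was seen in 34.5% (31.3% to 37.8%) of cKIT- Mcpt8-gated cells with a UMI of Cdh1, the E-cadherin gene, and in 29.3% (27.0% to 31.6%) of those without. In the cKIT+ library these shares were 29.0% (25.5% to 32.8%) and 24.7% (23.0% to 26.4%).

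**Figure D5:**
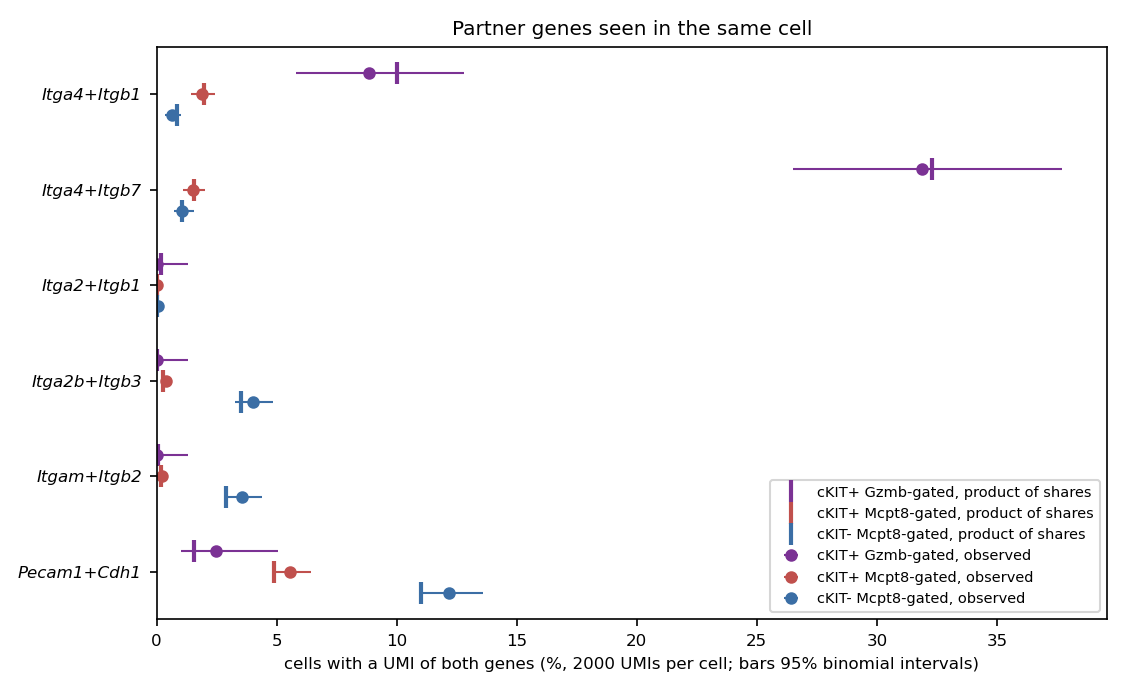
Share of cells with a UMI of both genes of a pair at 2000 UMIs per cell (circles, with 95% binomial intervals) and the product of the separate shares (vertical ticks), for cKIT+ Gzmb-gated (purple), cKIT+ Mcpt8-gated (red) and cKIT- Mcpt8-gated (blue) cells. The share for Itga4 and Itgb7 was 31.9% in Gzmb-gated cells, beside a product of 32.3%.

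For each member, the genes with the most similar course were found by Pearson's r of log2(CPM + 5) over 15 groups, among 9105 genes with at least 20 CPM in some group. The groups come from 2 libraries and differ in depth, so r is a description. Pecam1 was nearest to H2-Oa (0.97), Fosb (0.97) and Jun (0.94). Itga4 was nearest to Aplf (0.93), Gclc (0.88) and Ipo11 (0.87), and Itgb7 to Ddx25 (0.96), Pglyrp2 (0.95) and Rab19 (0.94). Itgb1 was nearest to Il1rap (0.94), a chain of the IL-33 receptor, D230025D16Rik (0.93) and Lgalsl (0.90). Itga2b was nearest to Plcb4 (0.98), Stx3 (0.97) and Atp10a (0.97), and Itgb3 to Gm35147 (0.93), L1cam (0.93) and D830025C05Rik (0.91). Itgam was nearest to the complement receptor C5ar1 (0.94), Bmx (0.93) and Il1rn (0.93), and Itgb2 to Myo1f (0.97), Mapk3 (0.96) and Lgals3 (0.96). Itga2 stayed under 20 CPM in every group and was left out.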

How the data were processed

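The authors sorted the cells, made 1 10x Genomics 3′ library per sort (kit version 3 in the methods, version 2 in the labels) and deposited unnormalized UMI counts, for which the labels name Cell Ranger 3.0.2 and mm10. The study's cell filter was applied to each library. Cells were dropped at either 1% extreme of gene number and at the top 1% of UMIs, counted over genes in at least 40 cells. No gene was dropped from the values, so all 31053 were kept. Counts were summed over gated cells and scaled to CPM. Sums carry exact Poisson intervals, ratios and shares exact binomial (Clopper-Pearson) intervals, at 95%. A gene was called at a 2-fold ratio with at least 10 CPM in 1 group, and 0 UMIs were set to 3 counts. Cycling cells had at least 2 UMIs of the cycle genes among 2000 and resting cells 0. The members, gates and lists were chosen with earlier results of these data known. Scrublet in Scanpy 1.11.5 called 347 and 15 cells as doublets, which were kept, and an alternative left out the 320 and 105 kept cells with the highest scores. edgeR 4.0.16 gave TMM scaling only. On simulated counts for the Mcpt8-gated comparison of sorts, all 200 genes changed by 4-fold were recovered among 7445. The changed genes were drawn from those with at least 20 CPM, and the counts carried Poisson error only. This checks the calculation and says nothing about calls near 2-fold or about variation between cells, mice or libraries. Named genes are the members, at most 3 genes of each context list by ratio and the 3 most similar genes per member. Gene coordinates were from GENCODE M21. Protein sequences and the study's flow cytometry were not analysed here.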

Additional observations from a re-analysis of the deposited data

How the results depend on the processing

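No paired analysis was possible because each sort has 1 library, and for the same reason no replicate could be left out. No ratio called past 2-fold changed direction under the alternatives run. Of all values recomputed under an alternative, 755 were counted as staying close to the main value and 162 as moved. Values counted as staying could still differ. Without the 10 most abundant genes, 7 members in place of 6 passed 2-fold between the sorts over all cells. The members past 2-fold between Prss34-high and Prss34-low cKIT+ cells became 3 with the gate limits doubled and 1 with the highest doublet scores left out, with the mean over cells or with thinning to 2000 UMIs (Itga4 in each, with Itgam and Itgb2 under the doubled limits), and thinning, chosen after seeing the data, gave 214 genes in place of 110. Doubling the gate limits also doubled the Prss34 limit of the split, so other groups were compared in both libraries. In the cKIT- library it gave 138 genes in place of 1258, and turned the balance from 772 higher and 486 lower to 50 higher and 88 lower. TMM scaling gave 5 members between Gzmb- and Mcpt8-gated cells. Thinning gave 1249 genes between cycling and resting cKIT- cells in place of 751. With at least 50 CPM required, the genes past 2-fold numbered 569 between the sorts, 320 between the sorts in Mcpt8-gated cells, 599 for Gzmb, 447 for Elane, 33 and 536 for Prss34 in the cKIT+ and cKIT- library, and 126 and 303 for cycling, where 0 members remained in the cKIT- library. At 1000 UMIs per cell, pairs were seen in fewer cells. In cKIT+ Mcpt8-gated cells the shares were 0.531% for Itga4 with Itgb1, 0.313% for Itga4 with Itgb7, 0.0938% for Itga2b with Itgb3 and 2.13% for Pecam1 with Cdh1. In Gzmb-gated cells they were 3.17%, 11.3% and 0.352% for Itga4 with Itgb1, Itga4 with Itgb7 and Pecam1 with Cdh1. In cKIT- Mcpt8-gated cells they were 0.287% for Itga4 with Itgb1, 0.205% for Itga4 with Itgb7, 0% for Itga2 with Itgb1, 1.15% for Itga2b with Itgb3, 0.779% for Itgam with Itgb2 and 3.81% for Pecam1 with Cdh1. Fewer UMIs per cell lower such shares by construction, and the cause of the other shifts was not tested. Leaving out the totals' 10 most abundant genes took the share of higher genes among those past 2-fold from 56.4% to 67.7% for Prss34 in the cKIT+ library. In the cKIT- library it went from 61.4% to 70%. Between the sorts it rose from 55.4% to 63.8% over all cells and from 55.1% to 64.8% in Mcpt8-gated cells. For cycling it went from 68.4% to 69.3% in the cKIT- and from 88.1% to 87.1% in the cKIT+ library. It fell from 63.6% to 61.2% for Gzmb and from 41.2% to 34.8% for Elane.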

Other observations

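Alternative alpha partners of the beta chains were read after their values were seen. Itgae, whose protein pairs with β7 and binds E-cadherin, had 6 UMIs in the Mcpt8-gated cells of each library, or 0.126 CPM (0.0464 to 0.275) in cKIT+ and 0.319 CPM (0.117 to 0.694) in cKIT- cells, beside 71.7 and 216 CPM of Itgb7. Itgav, the other partner of β3, was at 6.99 CPM (6.26 to 7.79) and 7.65 CPM (6.45 to 9) in the same cells, while Itgb3 went from 2.38 to 21.5 CPM. Itgal, a partner of β2, had 56.9 CPM (54.8 to 59.1) and 87.2 CPM (83.0 to 91.5). Itga1 reached 502 CPM (476 to 528) in ungated cKIT- cells, where its partner Itgb1 had 390 CPM (367 to 413).

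Prg2-gated cKIT+ cells combined an Itga2b level of 200 CPM with 6.21 CPM (2.98 to 11.4) of Itgb7 and 14.3 CPM (9.05 to 21.4) of Itgb2, both far under the 71.7 and 69.3 CPM of cKIT+ Mcpt8-gated cells, and Pecam1 at 72.0 CPM (59.5 to 86.4).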
